A study of Ambystoma mexicanum with 5 samples.

Results

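*Tbx2* and *Tbx22* are T-box transcription factor genes that were high on opposite sides of the uninjured axolotl lower arm. *Tbx2* (TBX2, AMEX60DD054625) was higher in posterior dermal connective tissue cells, and *Tbx22* (TBX22, AMEX60DD037579) was higher in anterior ones. They are 2 of the 99088 genes listed in the count table, of which 27710 had a count in some library and 20875 passed the filter on low counts. Both passed that filter. The pair was chosen by its measured values in these same libraries, as members of one family lying on opposite sides, so the posterior–anterior difference of either gene is described here without a test.

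The libraries came from 2 anterior and 3 posterior samples, and the comparison asks which genes differ between cells of the anterior and posterior limb before any injury. All 5 came from axolotls that carried, by I-SceI transgenesis, a mouse *Prrx1* enhancer (Mmu.Prrx1) driving nuclear TFP together with the tamoxifen-inducible recombinase ERT2-Cre-ERT2, and a Caggs promoter driving loxP-GFP-loxP-mCherry. 4-Hydroxytamoxifen (4-OHT) given to the embryos switched the cells using that enhancer, and their descendants, from GFP to mCherry for good. Each library pooled 16 lower arms of 8 axolotls that had grown to 12 cm. Lower-arm skin was cut into an anterior and a posterior piece with the middle left out, dissociated, and sorted for mCherry, so the samples hold cells that the enhancer marked and not all cells of the skin. Libraries were prepared from 20.25 ng of RNA with a QuantSeq kit, which reads the 3′ end of polyadenylated transcripts. Such counts do not scale with transcript length, although transcripts may still be captured with unequal efficiency. The animals behind same-numbered libraries of the 2 positions are not stated. With 16 lower arms from 8 axolotls, a library used both arms of its animals. By this count the libraries of one position came from separate animals.

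T-box proteins bind DNA through a shared domain, the T-box, and regulate the identity and growth of many embryonic tissues. Tbx2 is a transcriptional repressor closely related to Tbx3, and in mouse and chick limb buds both are expressed in stripes along the anterior and posterior margins. Tbx22, of the Tbx15 and Tbx18 branch, is also a repressor, best known from the palate: mutations of human *TBX22* cause X-linked cleft palate with tongue-tie.

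In anterior cells *Tbx2* had 329 and 349 counts, and in posterior cells it had 1896, 1854 and 1371. Levels are given below as CPM, counts per 1000000 counts of the TMM-scaled library size, and a mean is followed by ± the SD over libraries. *Tbx2* stood at 7.34 and 6.84 CPM in anterior cells. In posterior cells it stood at 32.3, 31.7 and 25.5 CPM. The positions did not overlap: the lowest posterior library lay 3.47 times above the highest anterior one. The means were 7.09 ± 0.357 CPM (n = 2) and 29.8 ± 3.76 CPM (n = 3), and the fitted log2 fold change, posterior against anterior, was 2.07 (SE 0.24), or 4.21-fold. By its mean level, *Tbx2* was among the top 41.8% of tested genes in anterior cells and the top 16.0% in posterior cells. It was thus counted at a moderate level on its low side, well above the 0.0512 to 0.0670 CPM that 3 counts were worth in these libraries.

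*Tbx22* showed the opposite arrangement. Anterior cells had 1359 and 1917 counts of it, and posterior cells had 525, 571 and 405. These counts correspond to 30.3 and 37.6 CPM in anterior cells. The posterior values were 8.95, 9.76 and 7.54 CPM. Again the positions did not overlap, the lowest anterior library lying 3.11 times above the highest posterior one. The means were 33.9 ± 5.11 CPM (n = 2) and 8.75 ± 1.12 CPM (n = 3), and the log2 fold change, posterior against anterior, was -1.96 (SE 0.23), or 3.88-fold higher in anterior cells. *Tbx22* was among the top 14.5% of tested genes in anterior cells and the top 37.2% in posterior cells, so it too was plainly counted on its low side. In bulk libraries such as these, fewer cells expressing a gene and less of its RNA per cell cannot be told apart.

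**Figure D1:**
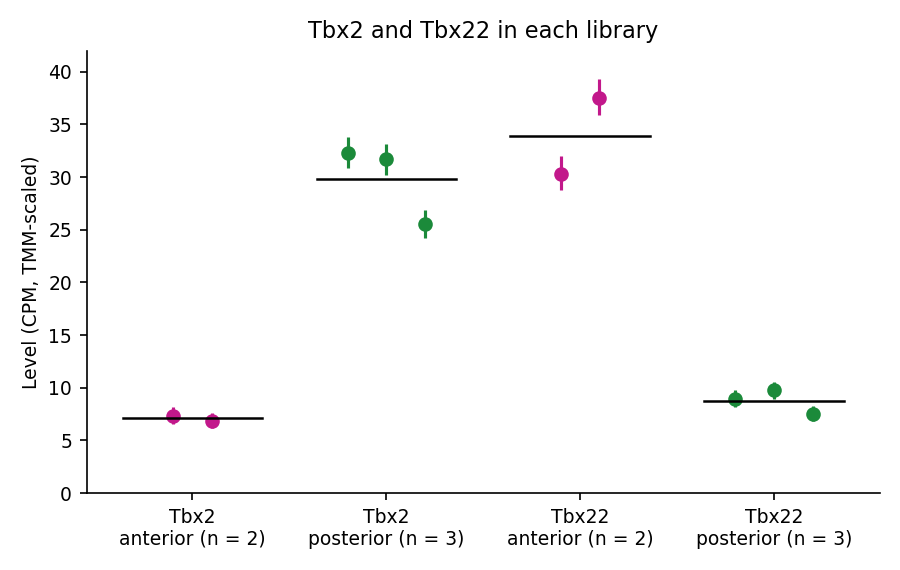
Level of *Tbx2* and *Tbx22* in each library, in TMM-scaled CPM, with anterior libraries in magenta and posterior libraries in green. Points are libraries, vertical bars are 95% Poisson intervals that cover counting error only, and horizontal lines are group means. The high sides reach 25.5 to 37.6 CPM and the low sides 6.84 to 9.76 CPM, with no overlap for either gene.

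Lack of overlap is common in a design of 2 against 3 libraries. Every posterior library was above every anterior one for 10.5% of the 20875 tested genes, as for *Tbx2*, and the reverse held for 13.6%, as for *Tbx22*. At an adjusted p of 0.01 in the edgeR fit, 53 genes were called (0.254% of those tested). The posterior side had 25 of them (0.120%) and the anterior side 28 (0.134%). These shares are background, and nothing is read from them about genes that were chosen on the same contrast.

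The spread between libraries of one position was small for both genes. Counting error alone, as the coefficient of variation of a Poisson count, was between 2.28% and 5.51% in the 10 values. For *Tbx2* the coefficient of variation between libraries was 5.03% in anterior cells, within the size of its counting error there, and 12.6% in posterior cells. For *Tbx22* it was 15.1% in anterior and 12.9% in posterior cells, above its counting error of 2.28% to 4.97%. The SD of log2 CPM within positions was 0.16 for *Tbx2*, against a median of 0.26 for the 4570 genes within 2-fold of its mean level, and 18.9% of those genes had a smaller SD. For *Tbx22* it was 0.20 against a median of 0.27 over 4733 genes, of which 28.4% had a smaller SD. A choice made on differences in these same libraries can favour genes with a small SD. The comparison with genes not so chosen is therefore a description only. Both genes had their lowest posterior value in posterior replicate 3.

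Set side by side, the 4 group levels formed 2 pairs. *Tbx22* in anterior cells (30.3 to 37.6 CPM) and *Tbx2* in posterior cells (25.5 to 32.3 CPM) overlapped and are not separated by their spread. *Tbx22* in posterior cells (7.54 to 9.76 CPM) and *Tbx2* in anterior cells (6.84 to 7.34 CPM) did not overlap, but the nearest libraries had Poisson intervals that did, 6.82 to 8.31 CPM for *Tbx22* and 6.57 to 8.18 CPM for *Tbx2*. The high level of one gene was therefore close to the high level of the other, and likewise for the low levels, as far as 3′ counts of different genes can be compared.

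The ratio of the 2 counts within a library does not depend on how libraries are scaled. All ratios here were taken with 0.5 counts added to both genes. *Tbx22* had 4.13 and 5.49 counts for each *Tbx2* count in the anterior libraries. In the posterior libraries *Tbx2* had 3.61, 3.24 and 3.38 counts for each *Tbx22* count. On the log2 scale *Tbx2* over *Tbx22* was -2.04 and -2.46 in anterior cells and 1.85, 1.70 and 1.76 in posterior cells. The group means were -2.25 ± 0.29 (n = 2) and 1.77 ± 0.08 (n = 3), which differ by 4.02, or 16.2-fold. The posterior libraries thus agreed closely in this ratio even though posterior replicate 3 was lowest for both genes. Since the genes were chosen for lying on opposite sides, the direction of this difference was set by the choice, and only its size and its spread are described.

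The summed level of the 2 genes differed between positions by less than the spread between libraries. It was 37.7 and 44.4 CPM in anterior cells and 41.3, 41.4 and 33.0 CPM in posterior cells, ranges that overlap. The means were 41.0 ± 4.76 CPM (n = 2) and 38.6 ± 4.80 CPM (n = 3), a posterior to anterior ratio of 0.940. With 1 library left out at a time the ratio ran from 0.869 to 1.02. *Tbx2* supplied 19.5% and 15.4% of the sum in anterior cells and 78.3%, 76.5% and 77.2% in posterior cells. With so few libraries a difference in the sum smaller than this spread could not be detected. Genes chosen for lying on opposite sides offset each other in a sum, so this balance is only described. The sum also adds 3′ counts of genes that may be captured unequally.

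**Figure D2:**
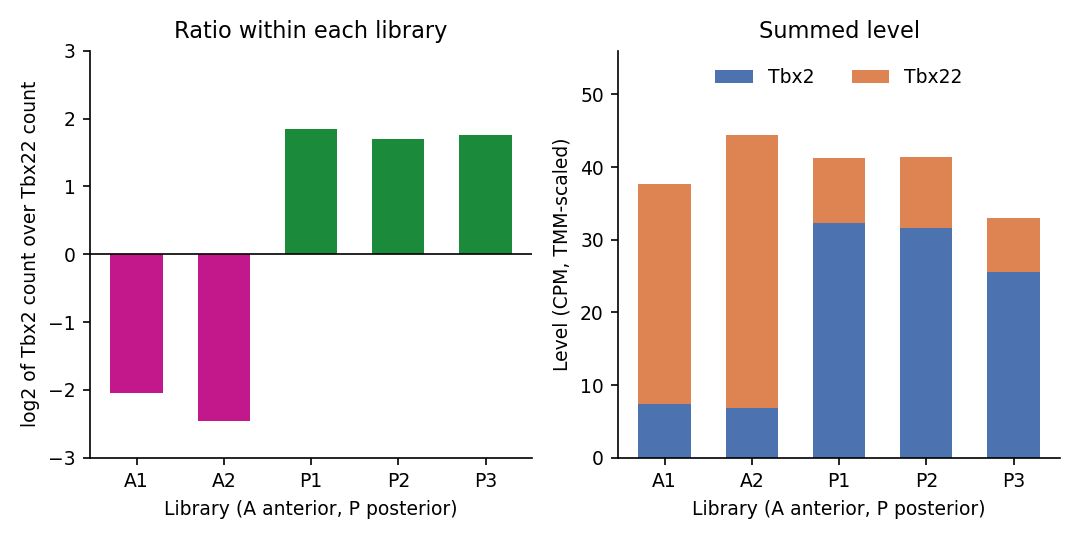
Left, log2 of the *Tbx2* count over the *Tbx22* count in each library (A1 and A2 anterior, P1 to P3 posterior), with magenta bars for anterior and green bars for posterior libraries. Right, the level of *Tbx2* (blue) stacked with that of *Tbx22* (orange) in TMM-scaled CPM. The ratio changes sign between positions, from -2.04 and -2.46 to between 1.70 and 1.85, while the sums of 33.0 to 44.4 CPM overlap.

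The pair belongs to a set of 25 spatial transcription factors that the study followed, 24 of which could be matched to a gene here. All 24 are genes the authors called different between these libraries, so their directions are not independent evidence. Of the 22 factors other than the T-box genes, 8 had a fold change above 0 (3 called higher in posterior cells) and 14 below 0 (4 called higher in anterior cells). The background shares of 0.120% and 0.134% apply here only as a description. The members' levels and sizes of difference fall in the middle of this set.

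Of the 9 posterior factors, *Znf10* alone had no anterior library above 3 counts. Among the 8 others, *Tbx2* ranked 4 by the size of its log2 fold change. The next larger was that of *Ebf2* (2.22, SE 0.25), a helix-loop-helix factor of mesenchymal and fat cell lineages, and the next smaller was that of *Hoxa13* (1.98, SE 0.46), a Hox factor of the distal limb. Both lay within 1 SE of *Tbx2*. By posterior level *Tbx2* ranked 6 of 9. *Ebf2* was also near it in level, with 6.89 ± 1.65 CPM (n = 2) in anterior and 32.1 ± 3.41 CPM (n = 3) in posterior cells.

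Among the 15 anterior factors, *Foxd1*, *Hoxc10* and *Lhx9* had no posterior library above 3 counts. *Tbx22* ranked 4 of the 12 others by the size of its log2 fold change. Its neighbours were *Lhx2* (-2.18, SE 0.26), a LIM-homeodomain factor of limb outgrowth in mouse and chick, and *Barx1* (-1.85, SE 0.34), a homeodomain factor of facial and stomach mesenchyme. By anterior level *Tbx22* ranked 7 of 15. *Lhx9*, a LIM-homeodomain factor, was at 14.9 ± 3.78 CPM (n = 2) in anterior cells and had 0 counts in all posterior libraries, where 3 counts were worth 0.0512 to 0.0558 CPM, whereas each T-box gene was at 6.84 CPM or more in every library.

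**Figure D3:**
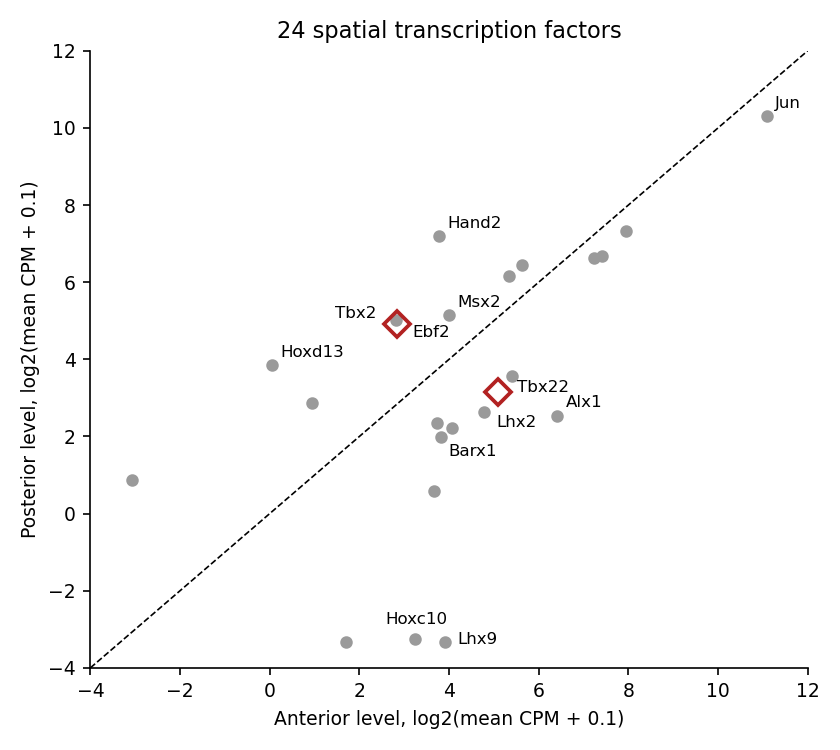
Mean anterior level against mean posterior level of 24 spatial transcription factors, on the scale log2(mean CPM + 0.1). Grey points are single factors, open red diamonds are *Tbx2* and *Tbx22*, and the dashed line marks equal levels. *Tbx2*, on top of *Ebf2*, lies above the line and *Tbx22*, near *Lhx2*, below it, while *Lhx9* and *Hoxc10* lie near the floor of the posterior axis.

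A list of 22 genes of limb patterning and known Tbx2 targets in mouse or chick gave 4 matches. The list mixes both kinds, and whether Tbx2 acts on any of the matches was not tested. All 4 are also among the genes the authors called different between these libraries, so the match itself selects for a difference. *Hand2*, a helix-loop-helix factor of the posterior limb bud, rose from 13.6 ± 0.340 CPM (n = 2) to 147 ± 5.68 CPM (n = 3) in posterior cells (log2 fold change 3.43, adjusted p = 2.53e-05 by edgeR). *Grem1*, which encodes a secreted BMP antagonist, rose from 26.9 ± 0.228 CPM (n = 2) to 253 ± 38.4 CPM (n = 3) (log2 fold change 3.24, adjusted p = 5.06e-05 by edgeR). *Hoxd13*, a Hox factor of the digits, rose from 0.931 ± 0.514 CPM (n = 2) to 14.3 ± 2.95 CPM (n = 3) (log2 fold change 3.94, adjusted p = 0.0047 by edgeR). *Msx2*, a homeodomain factor downstream of BMP signals, was at 16.0 ± 3.98 CPM (n = 2) and 35.3 ± 5.17 CPM (n = 3) (log2 fold change 1.14, adjusted p = 0.0826 by edgeR) and did not pass, although it passed under DESeq2 and in edgeR with no filter on low counts (lowest adjusted p = 0.000215). All 4 were higher in every posterior library than in any anterior one, against the 10.5% of tested genes given above. *Hand2* and *Grem1* passed in 12 of 12 alternative fits and *Hoxd13* in 8, its adjusted p reaching at most 0.139. *Hoxd13* did not pass under limma-voom, nor without posterior replicate 1, 2 or 3, where its log2 fold changes were 4.11, 3.90 and 3.82. Each of these 3 called genes had a larger fold change than *Tbx2*.

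A list of 20 genes of palate development, the tissue in which *Tbx22* is best known, gave 2 matches, and both are likewise among the authors' calls. *Mn1*, a transcriptional co-regulator needed for the palate in mouse, was at 24.6 and 28.9 CPM in anterior cells and 7.08, 6.37 and 6.05 CPM in posterior cells. It was higher in anterior cells (log2 fold change, posterior against anterior, -2.04, SE 0.24, adjusted p = 0.0047 by edgeR). *Barx1* was at 13.9 ± 1.66 CPM (n = 2) in anterior and 3.85 ± 0.807 CPM (n = 3) in posterior cells, with an adjusted p of 0.0462 by edgeR, and did not pass, although it passed under DESeq2 and in edgeR with no filter on low counts (lowest adjusted p = 0.000456). In both, every anterior library was above every posterior one, as in 13.6% of tested genes. *Mn1* passed in 8 of 12 alternative fits. It did not pass without anterior replicate 2 (log2 fold change -1.92) or without posterior replicate 1, 2 or 3 (-2.10, -2.03 and -1.98), with adjusted p-values of at most 0.0693. None of the other T-box genes was analysed here, since only *Tbx2* and *Tbx22* of 17 family symbols were paired with a gene in the sources used.

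Profiles most like each member were found by centring log2 CPM of every gene on its own mean and taking the root mean square difference over the 5 libraries. Because the main feature of either profile is the step between positions, this measure mostly finds genes with a like step, and it says nothing of shared function or control. Genes found this way were thus picked on the same contrast that the fits test. Symbols, too, were available mainly for genes the authors called different. Whether these genes were called, for either member, is therefore a description only. Among genes with a symbol, *Tnfaip2* was closest to *Tbx2* (0.0987, rank 2 of all tested genes), followed by *Sertad2* (0.161) and *Emp1* (0.257). The median over all tested genes was 1.18. *Tnfaip2*, first described as a gene induced by tumour necrosis factor, stood at 9.23 ± 0.111 CPM (n = 2) in anterior and 40.4 ± 2.75 CPM (n = 3) in posterior cells. *Emp1*, which encodes an epithelial membrane protein, stood at 12.6 ± 0.557 CPM (n = 2) and 64.4 ± 6.18 CPM (n = 3). *Sertad2*, a transcriptional co-regulator gene, was scarce, at 0.844 ± 0.196 CPM (n = 2) and 4.13 ± 0.664 CPM (n = 3). The log2 fold changes were 2.13 (SE 0.21), 2.36 (SE 0.19) and 2.29 (SE 0.65) for *Tnfaip2*, *Emp1* and *Sertad2*, near the 2.07 of *Tbx2*. *Tnfaip2* and *Emp1* were called in the edgeR fit, but not without posterior replicate 1, 2 or 3. *Sertad2* was not called (adjusted p = 0.281 by edgeR), nor was it under DESeq2 or limma-voom as run here. It is, however, among the genes the authors called different with their own DESeq2 run.

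For *Tbx22* the closest genes with a symbol were *Mn1* (0.114, rank 2 of all tested genes), *Mdga1* (0.140) and *Kansl2* (0.148), against a median over all tested genes of 1.10. *Mdga1*, which encodes a membrane-anchored adhesion protein, was at 41.1 ± 10.6 CPM (n = 2) in anterior and 9.97 ± 0.969 CPM (n = 3) in posterior cells. *Kansl2*, which encodes a subunit of a histone acetyltransferase complex, was at 7.70 ± 0.443 CPM (n = 2) and 2.04 ± 0.194 CPM (n = 3). *Mdga1* was called in the edgeR fit and passed in 8 of 12 alternative fits. It did not pass without posterior replicate 1, 2 or 3, nor without anterior replicate 2. Without anterior replicate 2, which left a lone anterior library, its log2 fold change was -1.75, against -2.04 with all libraries. *Kansl2* was not called (adjusted p = 0.125 by edgeR), although it passed under DESeq2. *Tbx22* and all 3 of these genes stood higher in anterior replicate 2 than in anterior replicate 1. *Tbx22* departed from all 3 in posterior replicate 2, where it was at its highest posterior level.

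**Figure D4:**
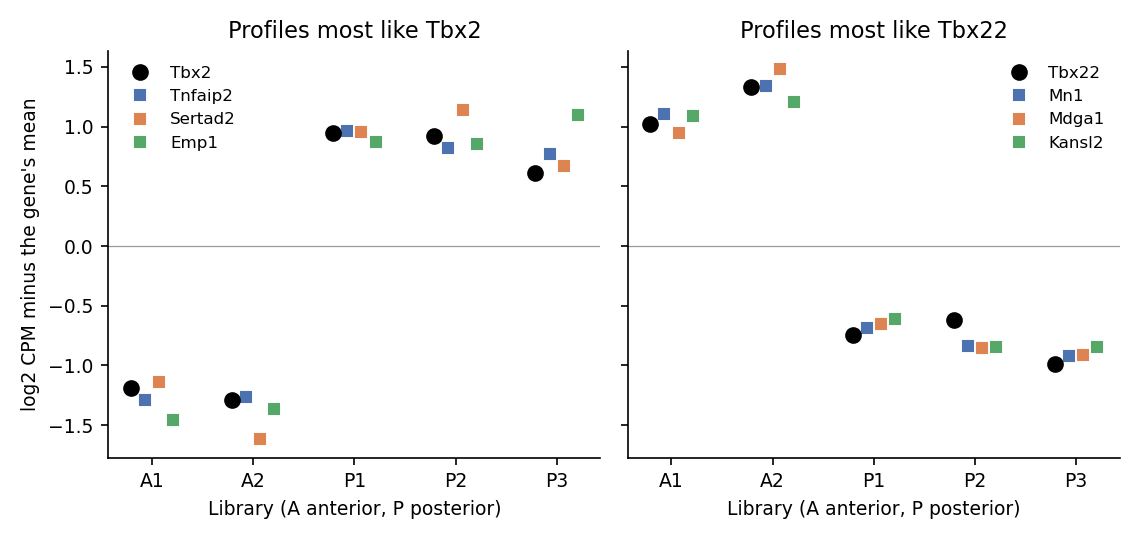
Log2 CPM of each gene minus its own mean over the 5 libraries (A1 and A2 anterior, P1 to P3 posterior), for *Tbx2* (left, black circles) and *Tbx22* (right, black circles) with the 3 most similar genes that carry a symbol (coloured squares). Each point is 1 library. All 4 genes of a panel lie on the same side of 0 in each library, and *Emp1* departs most, with a root mean square difference of 0.257 and its highest value in posterior replicate 3, where *Tbx2* has its lowest posterior value.

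Genes numbered next to the members were examined because the choice of the pair did not use them. The gene identifiers of the assembly are numbered in an order that was compared with a RefSeq table: on the chromosomes carrying *Tbx2* and *Tbx22*, 9 of 10 and 5 of 5 consecutive pairs of shared symbols ran in rising order. Of all 218 consecutive pairs, 162 lay on one chromosome or arm, and 133 of those ran in rising order. Neighbours were taken as the 25 identifiers before and the 25 after each member. The nearest symbols were 87 or more identifiers away, so the order within these windows was not checked. In the RefSeq table *TBX2* lies between *BCAS3* and *TBX4*, and *TBX22* lies beside *CHMP1B*, but these symbols were not paired with the files' identifiers.

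Around *Tbx2*, 20 of the 50 flanking identifiers had a count and 13 were tested. None was called at an adjusted p of 0.01 by edgeR, DESeq2 or limma-voom, and 2 had an unadjusted p under 0.05 in edgeR, both lower in posterior cells. The background share called was 0.254%, so a window of this size would rarely hold a called gene. The median log2 fold change of the 13 was 0.02, against -0.02 over all tested genes. The identifier directly before *Tbx2*, AMEX60DD054624, was at 13.9 CPM in anterior and 14.1 CPM in posterior cells (log2 fold change 0.02, SE 0.32). The clearest of the flanking differences was that of AMEX60DD054643, 18 identifiers after *Tbx2*, at 20.2 and 10.6 CPM (log2 fold change -0.93, SE 0.25, adjusted p = 0.25 by edgeR), in the direction opposite to *Tbx2*.

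Around *Tbx22*, 19 of the 50 flanking identifiers had a count and 16 were tested. Again none was called by edgeR, DESeq2 or limma-voom, and 1 had an unadjusted p under 0.05 in edgeR. That gene, AMEX60DD037569, stood at 27.5 CPM in anterior and 47.0 CPM in posterior cells (log2 fold change 0.77, SE 0.20, adjusted p = 0.214 by edgeR), opposite in direction to *Tbx22*. The median log2 fold change of the 16 was -0.01. Well-counted genes lay close by: AMEX60DD037575, 4 identifiers before *Tbx22*, was at 467 CPM at both positions, with a log2 fold change of 0.00 (SE 0.11). Many flanking genes had counts too few or too uneven between libraries for a difference of the size seen in the T-box genes to be detected.

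Only 283 identifiers carried a symbol, and the nearest identifiers with one were far off. For *Tbx2* they were *Dhrs11*, 496 identifiers before (log2 fold change -1.89, adjusted p = 0.0629 by edgeR), and *Hic1*, 279 after (0.81, adjusted p = 0.115 by edgeR). For *Tbx22* they were *Gpc4*, 87 before (0.63, adjusted p = 0.0711 by edgeR), and *Pcdh19*, 103 after (0.79, adjusted p = 0.152 by edgeR). None of the 4 passed in edgeR. All 4 passed under DESeq2, and *Dhrs11*, *Hic1* and *Gpc4* also passed in edgeR with no filter on low counts. Symbols were available mainly for genes the authors called with DESeq2 in these same libraries. The pass under DESeq2 was thus largely set in advance, and nothing is read from it about the neighbourhood of either member.

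**Figure D5:**
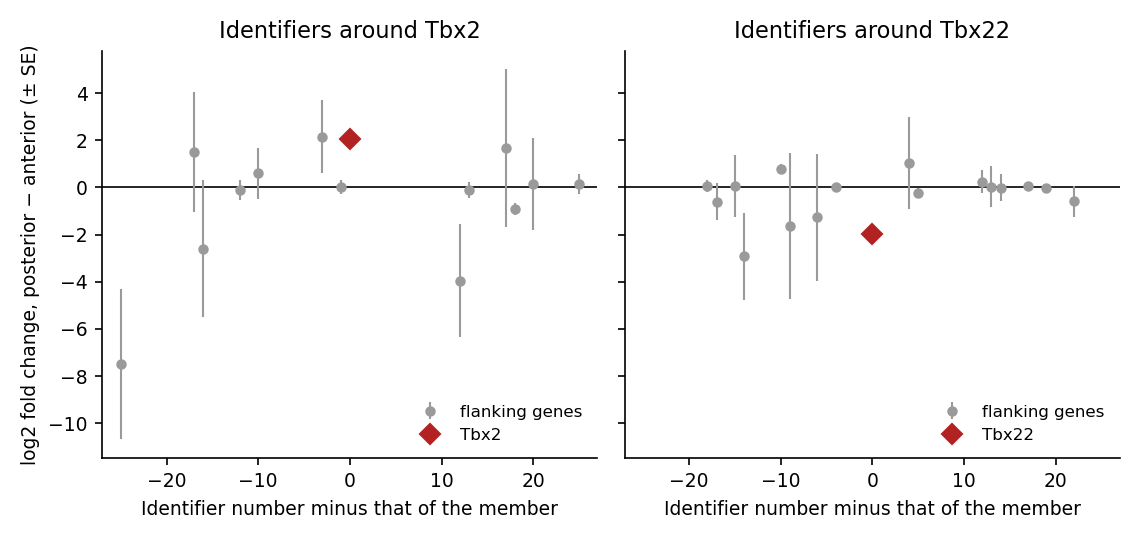
Log2 fold change, posterior against anterior, of tested genes among the 25 identifiers before and after *Tbx2* (left) and *Tbx22* (right), with SE bars. The horizontal axis is the identifier number minus that of the member, grey points are flanking genes and red diamonds the members, whose bars of 0.24 and 0.23 are smaller than the symbols. Neighbours with short bars lie between -0.93 and 0.77, and the members stand at 2.07 and -1.96. Points with long bars are scarce genes whose counts were few or uneven between libraries.

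Library totals ran from 44317956 to 59062548 counts, and the correlation of log2(CPM + 1) between any pair of libraries lay between 0.962 and 0.974, with no library apart from the rest. Markers of other cell types differed between the positions. Of 11 epidermal symbols 6 were matched, and their summed level was 298 to 318 CPM in anterior and 634 to 878 CPM in posterior libraries, with *Krt17* at 0 in both anterior and *Krt18* at 0 in all posterior libraries. For connective tissue 5 of 14 symbols were matched, *Prrx1* not among them, so the marker that defines the sorted cells was not checked. Their sum was 11669 to 13095 CPM in anterior and 6995 to 8063 CPM in posterior libraries. Most of it came from *Postn* (means of 8555 and 4769 CPM), while *Fn1*, also called, was higher in posterior cells (787 and 1312 CPM). Immune markers (3 of 7) summed to 82.4 to 116 CPM and 178 to 203 CPM, endothelial and pericyte markers (3 of 6) to 60.4 to 65.4 CPM and 81.1 to 110 CPM, and muscle markers (2 of 6, *Cav3* at 0 in anterior replicate 1) to 3.19 to 6.02 CPM and 15.7 to 19.5 CPM, anterior first. Within the endothelial and pericyte list *Angpt1* and *Cd34* were higher in every posterior library, whereas *Rgs5*, a pericyte marker, was at 31.6 CPM in anterior and 12.0 CPM in posterior cells (adjusted p = 0.0428 by edgeR). Schwann cell markers (2 of 5) went the other way, from 54.9 to 58.6 CPM in anterior to 17.5 to 24.4 CPM in posterior libraries, and none of 5 pigment cell symbols was matched. Symbols were available mainly for genes the authors called different, so these lists are weighted towards genes that differ. The part of such cells in the levels of *Tbx2* and *Tbx22* was not tested.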

How the data were processed

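Dermal connective tissue cells were profiled in 2 anterior and 3 posterior libraries, grouped by the sample titles. Per the labels and the study's methods, the reads passed through Trimmomatic 0.39, were aligned by HISAT2 against the AmexG_v6.0-DD assembly, with at most 5 alignments reported for a read, and were summed per gene by featureCounts. The versions of the last 2 tools, and the treatment of reads with several alignments, are not given in the sources used here. The authors deposited raw counts per gene and library, with 0 columns outside the 5 samples.

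Genes were filtered with filterByExpr, scaled by TMM and fitted with edgeR 4.0.16 (quasi-likelihood, R 4.3.3) on all 5 libraries, with p-values adjusted by the Benjamini-Hochberg method over 20875 genes and a threshold of 0.01. The SE of a log2 fold change is its size divided by the square root of F. P-values set the difference between positions against the spread between these libraries, estimated with help from the other genes. Differences between pools of animals and technical ones are not separated in that spread. Alternatives were DESeq2 1.42.0, limma-voom (limma 3.58.1), other scalings and filters, omission of each library, the replicate number as a block, a threshold of 0.05, other windows and other pseudocounts. The code was tested on simulated data.

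Symbols came from the authors' supplementary lists of genes called on this contrast, where 283 of 306 identifiers carry one. RefSeq (UKY_AmexF1_1, another assembly) served only for names and gene order. Named genes were the members, the 3 genes with a symbol closest to each in profile, the nearest genes with a symbol and the matched members of the lists. Members and lists were chosen with earlier results of these data known. No sequence is shown for the 2 genes. Intervals cover counting error only.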

Additional observations from a re-analysis of the deposited data

How the results depend on the processing

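The log2 fold change of *Tbx2* ran from 2.02 to 2.19 and that of *Tbx22* from -2.10 to -1.79 over 12 alternatives, and no flanking gene was called under any of the 15 alternatives for either member. The ratio of *Tbx2* to *Tbx22* differed between positions by 4.02 (log2) and by 3.81 to 4.23 with 1 library left out: 4.23 without anterior replicate 1 and 3.81 without anterior replicate 2. The number of genes called, 53, was 292 with DESeq2, 337 with no filter on low counts, 130 with a replicate block and 127 at a threshold of 0.05. With 1 library left out it ran from 2 to 62, being 5, 2 and 3 without posterior replicate 1, 2 or 3, where each position had 2 libraries. With an anterior library left out, the lone one is assumed to vary like the posterior ones. For the 18 other named genes, 178 of 216 values kept their direction and side of the threshold, 25 lost the call, 13 gained it and 0 reversed.

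In the replicate block, pairing replicates 1 and 2 by number, the fold changes were 2.17 for *Tbx2* and -1.85 for *Tbx22*, with 0 flanking genes called. The labels do not say that same-numbered libraries share animals, and the change from replicate 1 to replicate 2 correlated between positions with r = -0.0253 across genes, which are not independent replicates, so the numbers were not taken as pairs.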

Other observations

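With windows of 100 identifiers on each side, 56 genes around *Tbx2* and 62 around *Tbx22* were tested and 0 were called by edgeR in either window. An unadjusted p under 0.05 was found for 3 of the 56, all lower in posterior cells, and for 6 of the 62, of which 4 were higher in posterior cells. DESeq2 called 0 and 1 of them, and limma-voom called 0 in both. The gene with the smallest adjusted p in the window of *Tbx22* (0.0711 by edgeR) was *Gpc4*, which encodes a cell-surface glypican, at 255 ± 11.4 CPM (mean ± SD, n = 2) in anterior and 394 ± 36.3 CPM (n = 3) in posterior cells.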
